A study of Mus musculus with 8 samples.

Results

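The genes described here encode 7 CC chemokines, Ccl2, Ccl5, Ccl7, Ccl8, Ccl9, Ccl11 and Ccl25. Inflammatory CC chemokines is the name of the set and was not tested for each member. The genes were taken by symbol from a table of 17068 genes, in which all 7 were listed. Their expression was read by RNA-seq in osteoblastic cells (OBCs, bone-forming cells) that had been released from long bones with collagenase and sorted by FACS. All mice were female, of the C57BL/6J strain and about 10 weeks of age. The leukemic group has 4 libraries, of OBCs from mice carrying BCR-ABL+ B-ALL, a leukemia of early B cells driven by a tyrosine kinase fusion, and the control group has 4 libraries, of OBCs from mice without leukemia, labelled healthy. The comparison addresses how bone-forming cells of leukemic mice differ from those of healthy mice. Both groups were C57BL/6J, freshly isolated and processed alike per the labels, and no genetic change of the host or drug treatment is given for either. The surface markers of the sort, the way leukemia was induced and the number of mice behind each library are not stated in the labels. Nothing says that libraries of a group came from separate animals, so each p-value rests on a spread between libraries that may be technical.

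CC chemokines are small secreted proteins named for a pair of adjacent cysteines near the start of the mature protein. They attract leukocytes through G protein-coupled receptors of the Ccr family, and atypical receptors of the Ackr family bind and clear them without that signal. In marrow, stromal cells are a known source of Ccl2, which guides monocytes out of the marrow through Ccr2. The family is clustered in the mouse genome. In GRCm38.p6, Ccl2 (gene ID 20296) spans chromosome 11, 82035577 to 82037452, and Ccl7 (20306) follows at 82045712 to 82047525. Ccl11 (20292) lies at 82057832 to 82062955 and Ccl8 (20307) at 82115185 to 82116799 of the same chromosome. A second group further along holds Ccl5 (20304), at 83525778 to 83530518, and Ccl9 (20308), at 83572917 to 83578636. Ccl25 (20300) stands alone on chromosome 8, 4325205 to 4360020.

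The coding sequences around the cysteine pair are shown for the 4 neighbours of the first group, because their levels differed widely although they are alike in sequence. The capitals mark the codons of the adjacent cysteines, which were TGCTGC in all 4 genes. The letters come from the GENCODE M21 transcripts, and each stretch is 60 bases of the coding strand.
Ccl2: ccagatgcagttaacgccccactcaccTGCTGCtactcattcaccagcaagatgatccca
Ccl7: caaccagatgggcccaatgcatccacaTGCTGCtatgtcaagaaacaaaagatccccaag
Ccl11: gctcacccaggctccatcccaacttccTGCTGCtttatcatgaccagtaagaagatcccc
Ccl8: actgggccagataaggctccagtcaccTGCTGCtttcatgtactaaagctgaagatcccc

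Against the coding sequence of Ccl2, identity over aligned bases was 65.9% for Ccl7, 64.6% for Ccl11 and 65.3% for Ccl8. The longest run of bases shared with Ccl2 was 11 in Ccl7, 20 in Ccl11 and 12 in Ccl8. No subsequence of 31 bases was shared between any of the 7 chemokines and another gene of the Ccl family. Ccl9, whose transcript is longer, shared subsequences with 1049 other genes, each covering at most 2.12% of its own.

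Ccl2 and Ccl7 were abundant in OBCs and the other 5 chemokines were scarce. Values are FPKM, fragments scaled to transcript length and library total, so levels of different genes can be set side by side. By the median over all 8 libraries, the order was Ccl2 (226 FPKM), Ccl7 (104), Ccl25 (3.72), Ccl11 (2.41), Ccl9 (1.10), Ccl5 (0.285) and Ccl8 (0). Ccl2 exceeded Ccl7, and Ccl7 exceeded Ccl25, in 8 of 8 libraries. Ccl25 lay above Ccl11 in 6 of 8 and Ccl11 above Ccl9 in 7 of 8, so these neighbours were not separated in every library, while Ccl9 exceeded Ccl5 in 8 of 8. Ccl2 ranked between 89 and 1116 among all genes of a library, and Ccl7 between 216 and 2819. Together they made up 97.7 to 98.9% of the summed FPKM of the 7 chemokines in leukemic libraries and 93.4 to 97.5% in control libraries.

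**Figure D1:**
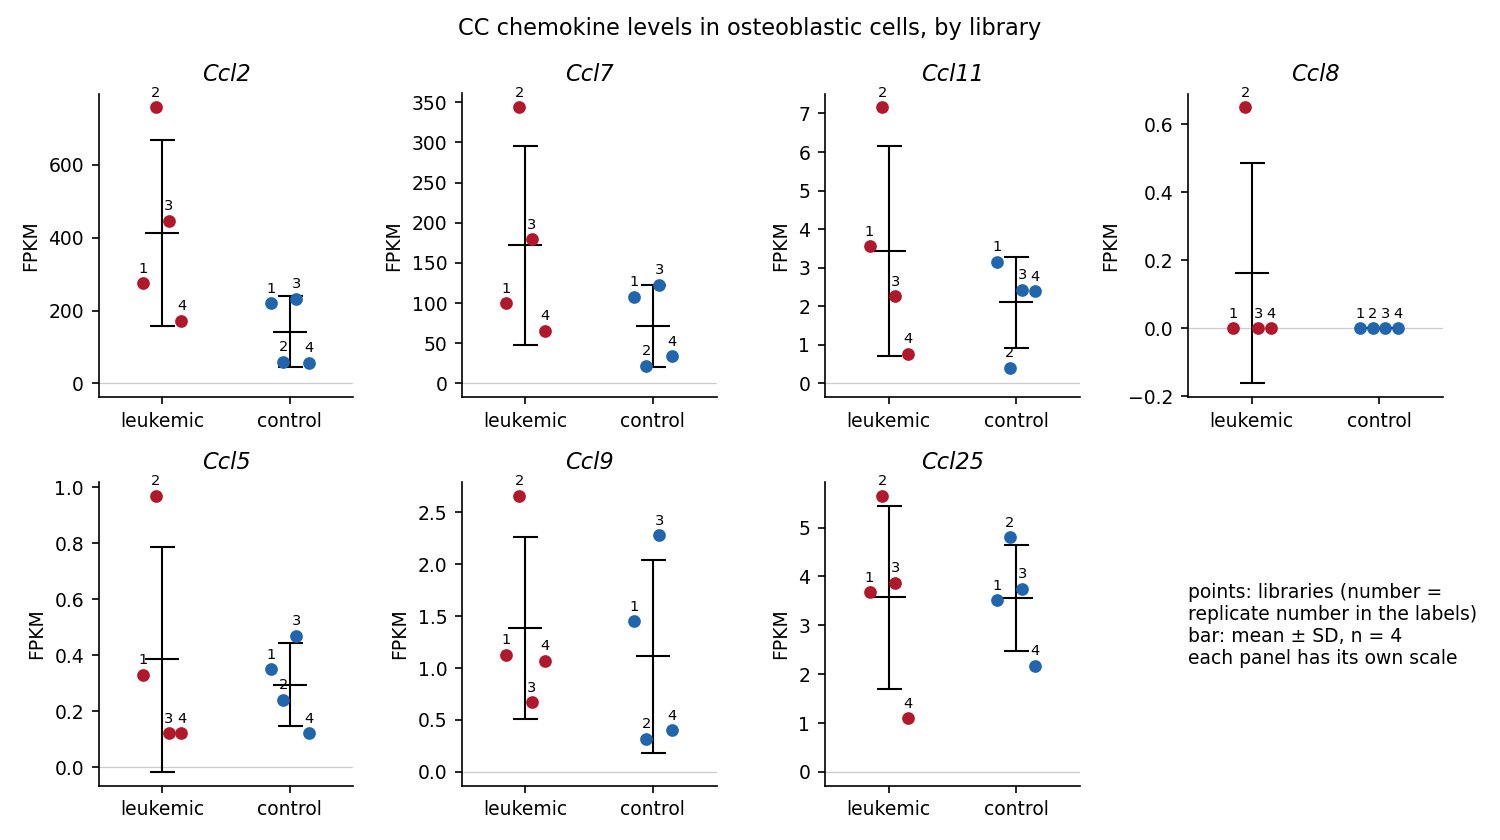
FPKM of each chemokine in the 4 leukemic libraries (red) and the 4 control libraries (blue), with the mean ± SD and a separate linear scale per gene. The highest value of every gene is that of leukemic library 2, and the groups overlap in all 7 panels.

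The cells carried the transcripts that define osteoblasts. The summed FPKM of 8 osteoblast markers (Col1a1, Col1a2, Runx2, Sp7, Alpl, Bglap, Ibsp and Dmp1) was 20010 to 25988 in leukemic and 24231 to 29567 in control libraries. Of the 8, 7 had a log2 fold change below 0, where 6008 of all 11214 genes tested did. At an unadjusted p under 0.05, 1 of the 8 (Col1a2) was lower, where 4.13% of all genes were. None passed at an adjusted p under 0.05, where 0% of all genes did. Transcript length divided the libraries: the Spearman rho between a gene's deviation from its mean over libraries and its length was -0.289, -0.305, -0.0824 and 0.298 in leukemic libraries 1 to 4, and ran from 0.037 to 0.281 in control libraries. Leukemic libraries 1 and 2 were thus relatively rich in short transcripts, and those of Ccl2 (813 bases) and Ccl7 (801 bases) are short.

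Ccl2, the main attractant of monocytes through Ccr2, was measured at 275, 758, 447 and 172 FPKM in leukemic libraries 1 to 4, against 219, 59.3, 233 and 56.5 FPKM in control libraries 1 to 4. Leukemic libraries 1, 2 and 3 lay above every control library, while leukemic library 4 lay between the low control libraries 2 and 4 and the high control libraries 1 and 3. Leukemic libraries averaged 413 ± 257 FPKM and control libraries 142 ± 97.2 FPKM (SD, n = 4 each), which is a ratio of 2.91. On the log2(FPKM + 1) scale, which understates changes of low genes, the fold change was 1.63 (SE 0.57). In limma, a linear model fitted to all genes, the unadjusted p was 0.0171 and the adjusted p (Benjamini-Hochberg over 11214 genes) was 0.695, so Ccl2 did not pass the threshold of 0.05. In bulk RNA, a different number of cells that express Ccl2 and a different amount of Ccl2 RNA per cell cannot be told apart.

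Ccl7, which attracts monocytes through Ccr2 and also binds other receptors of the family, was measured at 99.4, 344, 179.8 and 65.7 FPKM in leukemic libraries 1 to 4, against 108, 22.1, 123 and 34 FPKM in control libraries 1 to 4. Every control library lay below leukemic libraries 2 and 3, and leukemic libraries 1 and 4 lay within the control range. Leukemic libraries averaged 172 ± 124 FPKM and control libraries 71.7 ± 51 FPKM (SD, n = 4 each). The log2 fold change was 1.31 (SE 0.62, limma adjusted p = 0.695).

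Ccl11, or eotaxin, which attracts eosinophils through Ccr3, was measured at 3.55, 7.16, 2.26 and 0.77 FPKM in leukemic libraries 1 to 4, against 3.16, 0.41, 2.43 and 2.39 FPKM in control libraries 1 to 4. The groups overlapped, and leukemic library 2 was the only one above 4 FPKM. The log2 fold change was 0.41 (SE 0.47, limma adjusted p = 0.836), and without leukemic libraries 1 and 2 it was -0.26. Ccl8, a monocyte chemoattractant in human and a ligand of Ccr8 in mouse, was listed at 0.65 FPKM in leukemic library 2 and at 0 in the other 3 leukemic and in all 4 control libraries. No test was made at this level.

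Ccl5, or RANTES, a product of T cells and NK cells that attracts leukocytes, was measured at 0.33, 0.97, 0.12 and 0.12 FPKM in leukemic libraries 1 to 4, against 0.35, 0.24, 0.47 and 0.12 FPKM in control libraries 1 to 4. The groups overlapped, and Ccl5 did not reach the level for a test. Ccl9, a ligand of Ccr1 made by myeloid cells and osteoclasts, was measured at 1.13, 2.66, 0.67 and 1.07 FPKM in leukemic libraries 1 to 4, against 1.45, 0.32, 2.28 and 0.40 FPKM in control libraries 1 to 4. The control libraries fell into a higher pair (1 and 3) and a lower pair (2 and 4), and the leukemic values, all above the lower pair, ran past the higher pair on both sides. The log2 fold change of Ccl9 was 0.21 (SE 0.35, limma adjusted p = 0.895).

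Ccl25, the ligand of Ccr9 known from thymus and small intestine, was measured at 3.68, 5.65, 3.87 and 1.10 FPKM in leukemic libraries, against 3.51, 4.80, 3.75 and 2.17 FPKM in control libraries. The means were close (3.58 ± 1.87 FPKM in leukemic and 3.56 ± 1.08 FPKM in control libraries, SD, n = 4 each) with a wider range in leukemic libraries, and its log2 fold change was -0.08 (SE 0.34, limma adjusted p = 0.968). The log2 fold change per library left out ran from -0.30 without leukemic library 2 to 0.26 without leukemic library 4, and was -0.48 without leukemic libraries 1 and 2.

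Of the 7 chemokines, 5 reached 1 FPKM in at least 4 libraries and were tested. Of these 5, 0 passed at an adjusted p under 0.05, where 0% of all 11214 genes passed. At an unadjusted p under 0.05, 1 of 5 (Ccl2) was higher in leukemic OBCs, where 2.49% of all genes were, and 0 of 5 were lower, where 4.13% were (6.62% in either direction). Ccl2 missed that unadjusted threshold without leukemic library 2, without control library 2, without control library 4 and without leukemic libraries 1 and 2 (limma unadjusted p = 0.0507, 0.057, 0.056 and 0.0814, adjusted p = 0.687, 0.847, 0.879 and 0.895, in that order). The log2 fold change was above 0 in 4 of the 5, where it was in 46.4% of all genes, and 1 or more in 2 of the 5 (Ccl2 and Ccl7), where it was in 1.53%. It was -1 or less in 0 of the 5, where it was in 0.169%. The leukemic libraries lay wholly above the control libraries for 0 of the 5, where they did for 0.954% of all genes, and wholly below for 0 of the 5, where they did for 2.9%. The median log2 fold change was 0.41 over the 5 and -0.02 over all genes tested. Across all genes, 279 were higher and 463 lower at an unadjusted p under 0.05, a split that was 171 and 725 with totals rescaled to TPM and 421 and 388 with the length trend removed.

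**Figure D2:**
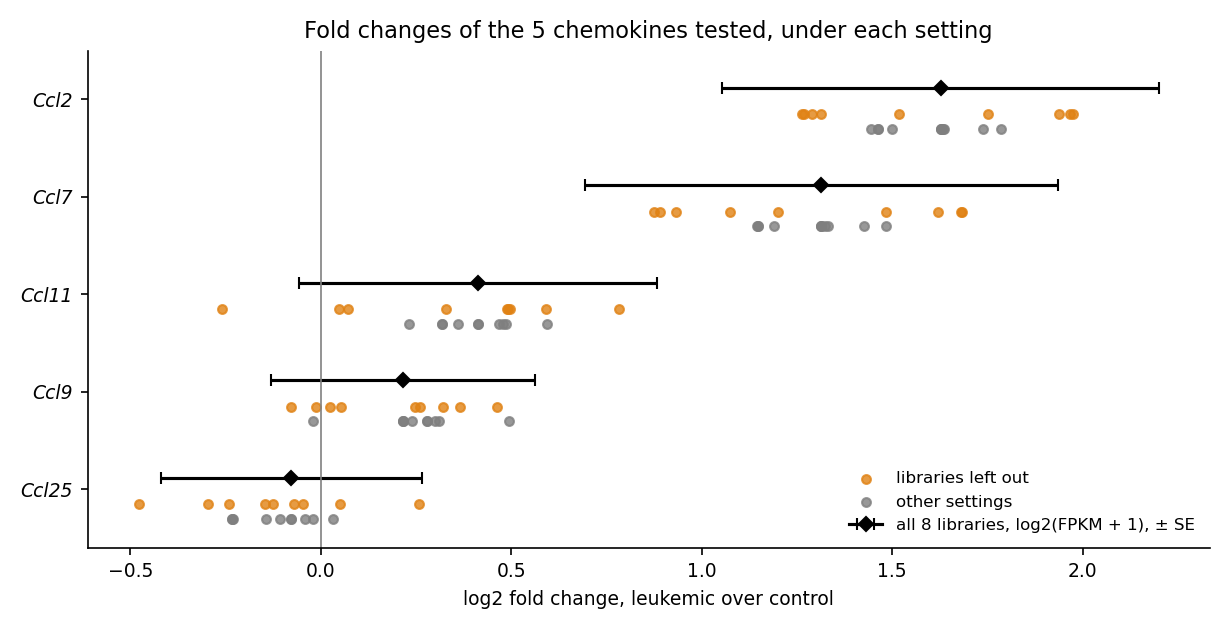
The log2 fold change (leukemic over control) of the 5 chemokines tested, with all 8 libraries (black diamond, ± SE) and under each other setting (orange, libraries left out; grey, other pseudocounts, filters, scalings, weights and covariates). All values of Ccl2 (1.26 to 1.97) and Ccl7 (0.88 to 1.68) lie above 0, and those of Ccl11, Ccl9 and Ccl25 lie on both sides of 0.

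The estimate for Ccl2 stayed between 1.26 and 1.97 under the 20 other settings run, and that of Ccl7 between 0.88 and 1.68. With the trend with transcript length removed in each library, the fold changes were 1.46 for Ccl2 and 1.15 for Ccl7 (limma adjusted p = 0.677 for both). Without the relatively short-transcript-rich leukemic libraries 1 and 2 they were 1.27 and 0.93 (limma adjusted p = 0.895 for Ccl2 and 0.935 for Ccl7). The lowest adjusted p of Ccl2 over all settings was 0.08, with the marrow stromal markers described below as a covariate.

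**Figure D3:**
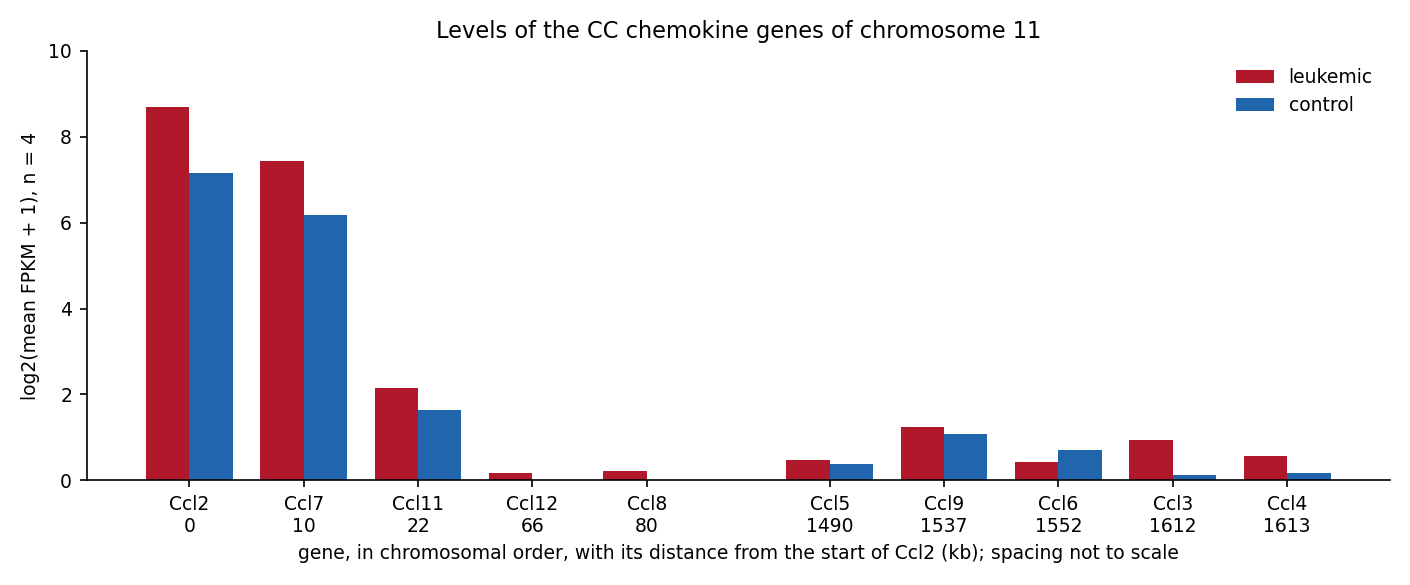
Level of each CC chemokine gene of chromosome 11, as log2(mean FPKM + 1) over 4 leukemic (red) and 4 control (blue) libraries, in chromosomal order with the distance from the start of Ccl2 in kb. Ccl2 and Ccl7, about 10 kb apart, stand far above the 8 other genes, of which Ccl11 is the highest.

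Along chromosome 11, high levels were limited to Ccl2 and Ccl7 among the 10 CC chemokine genes listed there. The starts of Ccl2 and Ccl7 are 10.1 kb apart, and Ccl11, 22.3 kb from Ccl2, averaged 3.44 ± 2.73 FPKM in leukemic and 2.10 ± 1.18 FPKM in control libraries (SD, n = 4 each). Ccl12, which lies between Ccl11 and Ccl8, was listed at 0.48 FPKM in leukemic library 2 and at 0 in the other 7 libraries. The 15 other genes tested in the stretch from 500 kb before the first to 500 kb after the last of these chemokine genes, the interval between both groups included, had log2 fold changes from -0.42 to 0.52, with a median of -0.03. None of them lay before Ccl2 or close to it, as the nearest, Zfp830, starts 729 kb from the start of Ccl2. None of the 15 had an unadjusted p under 0.05 in limma, where 6.62% of all genes did. The adjusted p was over 0.05 for all of them, as for all genes tested.

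Ccl2 and Ccl7 varied together from library to library. Over the 8 libraries their log2(FPKM + 1) values had a Pearson r of 0.98 and a Spearman rho of 0.90, given as a description of libraries that share their depth and processing. The ratio of Ccl2 to Ccl7 was 2.76, 2.21, 2.49 and 2.62 in leukemic libraries 1 to 4, against 2.03, 2.68, 1.89 and 1.66 in control libraries 1 to 4. It averaged 2.52 ± 0.237 in leukemic and 2.07 ± 0.437 in control libraries (SD, n = 4 each), and the groups overlapped. Ccl25 followed the others least, with a Pearson r of 0.38 with Ccl2 and 0.28 with Ccl9.

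The likest genes were sought outside the 7 chemokines and without predicted genes. Those whose profile over the 8 libraries was most like that of Ccl2, by Pearson r of log2(FPKM + 1), were Bst2 (0.98), an interferon-induced membrane protein, Psmb9 (0.97), a subunit of the immunoproteasome, and Tmem176a (0.97). For Ccl7 they were Bst2 (0.98), H2-Q7 (0.98), a non-classical MHC class I gene, and Mgst1 (0.97), a microsomal glutathione transferase. Bst2 averaged 92.6 FPKM in leukemic and 36.5 FPKM in control libraries, and Psmb9 24.9 FPKM in leukemic and 10 FPKM in control libraries. Tmem176a averaged 503 FPKM in leukemic and 281 FPKM in control libraries, H2-Q7 55.6 and 34.9 FPKM, and Mgst1 73.3 and 41.4 FPKM. The limma adjusted p was 0.695 for Bst2, Psmb9, Tmem176a and H2-Q7, and 0.701 for Mgst1. For the scarce members the likest genes were Chst2 (0.98), Dclk2 (0.95) and Zfp954 (0.95) with Ccl9, Srpk1 (0.96), Ppie (0.94) and Arpp19 (0.94) with Ccl11, and Serhl (0.98), Ube2m (0.97) and Hax1 (0.97) with Ccl25. These were the highest among the 11214 genes tested, less those left out, over 8 points. A high r therefore follows from the selection, as does a group difference like that of the chemokine matched.

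Markers of marrow stromal cells, the reticular cells that make Cxcl12, varied much as Ccl2 and Ccl7 did among the control libraries, and less so among the leukemic ones. All 7 listed markers (Lepr, Cxcl12, Adipoq, Foxc1, Ebf3, Vcam1 and Kitl) were tested, and their summed FPKM was 1473 to 3866 in leukemic and 1196 to 5383 in control libraries. Ccl9 followed them too. In control libraries, Pearson r with their mean log2(FPKM + 1) was 0.98 for Ccl2, 0.93 for Ccl7, 0.98 for Ccl9, 0.49 for Ccl11 and 0.33 for Ccl25. In leukemic libraries it was 0.79, 0.83, 0.65, 0.50 and 0.47 in that order. Each r rests on 4 libraries. The control libraries form a high pair (1 and 3) and a low pair (2 and 4), so any gene with that split has a high r. The share of all genes with such an r was not computed, so these values do not show a link particular to the chemokines. Foxc1 was an exception, higher in control library 2 (4.39 FPKM) than 1 (3.43 FPKM). Adipoq, the adipokine gene that marks these cells, stood at 249, 808, 299 and 112 FPKM in leukemic libraries 1 to 4, against 773, 273, 939 and 183 FPKM in control libraries 1 to 4. The order of the libraries by Adipoq was the order by Ccl2 in both groups, with control libraries 1 and 3 high and 2 and 4 low for both genes. Cxcl12, the main chemokine of these cells, stood at 980, 2457, 1681 and 1803 FPKM in leukemic libraries 1 to 4, against 2924, 1449, 3680 and 798 FPKM in control libraries 1 to 4. Control libraries 1 and 3 were again the high ones, but leukemic library 4, the lowest for Ccl2, was the second highest for Cxcl12. Vcam1 was highest of the leukemic libraries in that same library (334 FPKM). Its Spearman rho over the 4 leukemic libraries was -0.2 with Ccl2 and with Ccl7. Of the 7 markers, only Adipoq had the library order of Ccl2 in both groups.

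The level of Ccl2 per Adipoq was 1.10, 0.938, 1.5 and 1.54 in leukemic libraries 1 to 4, against 0.284, 0.218, 0.248 and 0.308 in control libraries 1 to 4. That of Ccl7 per Adipoq was 0.399 to 0.601 in leukemic and 0.0812 to 0.186 in control libraries. Neither ratio overlapped between the groups, and 3.23% of all genes tested lay higher in leukemic libraries without overlap when divided by Adipoq. Divided by Cxcl12, Ccl2 also did not overlap (0.0955 to 0.309 in leukemic and 0.0409 to 0.0751 in control libraries), where 0.74% of genes did not. The same held for Ccl2 divided by Kitl (7.06 to 27.2 in leukemic and 4.26 to 6.51 in control libraries, 0.642% of genes), but not divided by Lepr or Vcam1, and Ccl7 overlapped when divided by any of these 4. These ratios were chosen after the values were seen and carry no test.

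**Figure D4:**
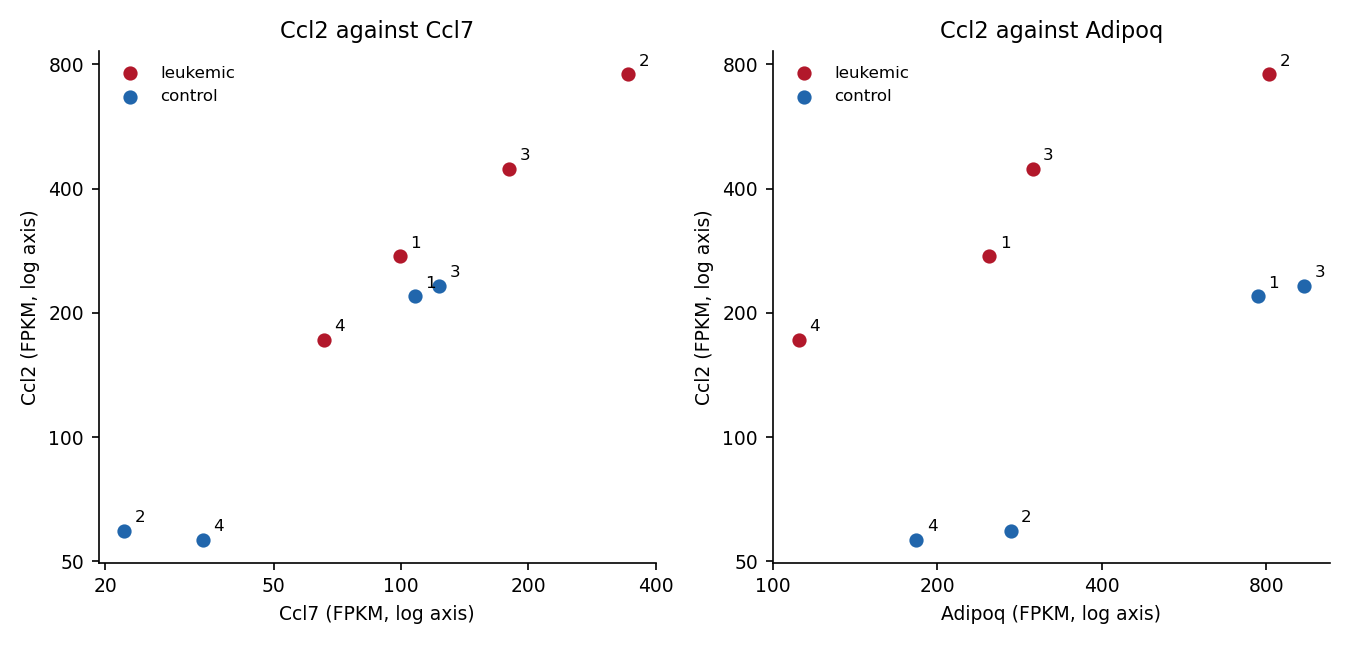
Ccl2 against Ccl7 (left) and against Adipoq (right) in the 4 leukemic (red) and 4 control (blue) libraries, in FPKM on log axes, with the replicate number of each library. Against Ccl7 the libraries lie near a single line, and against Adipoq the leukemic libraries lie above the control libraries at a like level of Adipoq. Adipoq was chosen after the values were seen, and Ccl2 divided by Lepr or Vcam1 overlapped between the groups.

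With the mean log2(FPKM + 1) of the 7 stromal markers as a covariate, a fit added after the data were seen, the log2 fold change of Ccl2 was 1.79 (SE 0.29, limma adjusted p = 0.08). That of Ccl7 was 1.48 (SE 0.33, limma adjusted p = 0.237). Neither passed, and 6 of the 11214 genes did. The stromal markers had log2 fold changes of their own from -0.60 (Adipoq) to 0.37 (Vcam1), none with an unadjusted p under 0.05 in limma (lowest adjusted p = 0.701). A mean of markers in bulk RNA cannot tell the number of stromal cells from their RNA per cell. The part of stromal cells in the levels of Ccl2 and Ccl7 was not tested.

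Of the other CC chemokines in a list of 14, 12 were in the table and 2 reached the level for testing. Ccl19, a ligand of Ccr7, stood at 156, 253, 83.8 and 31.2 FPKM in leukemic libraries 1 to 4, against 10.1, 5.34, 7.96 and 2.68 FPKM in control libraries 1 to 4, with a log2 fold change of 3.88 (SE 0.58, limma adjusted p = 0.144). Leukemic library 2 was highest and leukemic library 4 lowest for Ccl19, as for Ccl2 and Ccl7, but control libraries 1 and 3 did not reach any leukemic value. Ccl27a, a skin chemokine that binds Ccr10, averaged 2.51 ± 1.37 FPKM in leukemic and 0.848 ± 0.478 FPKM in control libraries (SD, n = 4 each; log2 fold change 0.88, SE 0.32, limma adjusted p = 0.695). Of the genes too low to be tested, Ccl3, made by macrophages, was measured at 1.2, 0.85, 0.98 and 0.61 FPKM in leukemic libraries 1 to 4, against 0, 0.25, 0 and 0.13 FPKM in control libraries 1 to 4. Ccl20, the ligand of Ccr6, was measured at 0.59, 2.18, 0.30 and 0.06 FPKM in leukemic libraries and was listed at 0 in all 4 control libraries. Ccl3 and Ccl20 are named because their groups did not overlap, after their values were seen. Most of their values were under 1 FPKM, where precision is unknown. The share of genes without overlap was taken only over genes tested (0.954% with leukemic libraries above), so no share covers these genes.

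The receptors that carry the signal of these chemokines were near 0. Of 14 listed receptors, 12 were in the table, and 9 of them stayed under 1 FPKM in all 8 libraries, among them Ccr1, Ccr2, Ccr3, Ccr8 and Ccr9. Ccr2 was at most 0.55 FPKM in leukemic and 0.12 FPKM in control libraries. The 3 receptors tested do not drive chemotaxis. Ackr4, which scavenges Ccl19 and Ccl25, averaged 47 ± 23 FPKM in leukemic and 50.5 ± 28.8 FPKM in control libraries (SD, n = 4 each; log2 fold change -0.06, SE 0.43). Ackr2, which scavenges inflammatory CC chemokines including Ccl2, Ccl5, Ccl7 and Ccl11, averaged 11.5 ± 3.35 FPKM in leukemic and 16.6 ± 8.84 FPKM in control libraries (log2 fold change -0.29, SE 0.47). Ccrl2, which binds chemerin, averaged 5.61 ± 0.908 FPKM in leukemic and 5.14 ± 1.54 FPKM in control libraries (log2 fold change 0.13, SE 0.22). The limma adjusted p was at least 0.893 for all 3.

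Of the listed genes known to act upstream of inflammatory chemokines, none passed at an adjusted p under 0.05, where 0% of all genes did. All 14 listed receptors and adaptors of inducing signals (among them Il1r1, Tnfrsf1a, Ifngr1, Il4ra, Tlr4 and Myd88) were tested, with a median log2 fold change of 0.14. It was above 0 in 9 of the 14, where it was in 46.4% of all genes. The unadjusted p was under 0.05 in 0 of the 14, where it was in 6.62% of all genes (lowest limma adjusted p = 0.711). Of 17 listed transcription factors and RNA-decay regulators, 16 were tested, with a median log2 fold change of 0.14. At an unadjusted p under 0.05, 3 of the 16 were higher, where 2.49% of all genes were, and 1 was lower, where 4.13% were, and none passed adjusted over all genes. Relb, an NF-kB subunit of the non-canonical branch, averaged 15.1 ± 2.24 FPKM in leukemic and 9.59 ± 2.23 FPKM in control libraries, without overlap of the groups, as for 0.954% of all genes (log2 fold change 0.62, SE 0.21, limma adjusted p = 0.695). Nfkbia, the NF-kB inhibitor that NF-kB itself induces, averaged 565 ± 188 FPKM in leukemic and 347 ± 67.5 FPKM in control libraries (log2 fold change 0.65, SE 0.27), and Jun, a subunit of AP-1, had a log2 fold change of 0.55 (SE 0.23). Nfkb1, whose p50 product pairs with Rela, averaged 8.06 ± 2.33 FPKM in leukemic and 12.5 ± 1.59 FPKM in control libraries (log2 fold change -0.60, SE 0.21, limma adjusted p = 0.695).

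Of 5 proteases that trim or inactivate chemokines, 4 were tested, with a median log2 fold change of 0.41. Mmp9 stood at 29.96, 41.7, 66.1 and 100 FPKM in leukemic libraries 1 to 4, against 10.2, 10.8, 45.2 and 11.5 FPKM in control libraries 1 to 4 (log2 fold change 1.72, SE 0.49, limma adjusted p = 0.639). Control library 3 lay within the leukemic range, and the other 3 control libraries below it.

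Markers of cells that make or follow these chemokines were looked for in the same libraries. Of 13 macrophage and monocyte markers, 7 stayed under 1 FPKM in all 8 libraries, including Csf1r, Adgre1 and Fcgr1, and the list summed to 72.6 to 166 FPKM in leukemic and 71 to 91.3 FPKM in control libraries. Lyz2 made up 61.7% of that sum and stood at 107, 114, 69.6 and 41 FPKM in leukemic libraries 1 to 4, against 45.1, 44.9, 34.8 and 47.2 FPKM in control libraries 1 to 4 (log2 fold change 0.83, SE 0.30, limma adjusted p = 0.695). Of the 5 macrophage and monocyte markers tested, 2 had a log2 fold change above 0, where 46.4% of all genes did, and 3 below 0. Their median log2 fold change was -0.0175. The pan-leukocyte list of 5 genes summed to 3.42 to 8.86 FPKM in leukemic and 2.30 to 5.22 FPKM in control libraries. The T and NK cell list, 9 genes in the table, summed to 1.01 to 4.53 FPKM in leukemic and 1.06 to 2.14 FPKM in control libraries. Leukemic library 2, highest for all 7 chemokines, was also highest for the macrophage, T and NK, B-lineage, pan-leukocyte, fibroblast and inducing-receptor sums and for the summed FPKM of all genes. The part of these in the chemokine values was not tested.

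The B-lineage list of 8 genes, which includes the pre-B genes Vpreb1 and Igll1, summed to 6.60, 14.3, 3.01 and 1.19 FPKM in leukemic libraries 1 to 4 and to 0.98 to 2.53 FPKM in control libraries. Neutrophil markers (8 genes) summed to 11.5 to 63.7 FPKM in leukemic and 11.95 to 74 FPKM in control libraries, and osteoclast markers (7 genes, 91.1% of it Ctsk, which osteoblastic cells can also express) to 217 to 289 FPKM in leukemic and 181 to 298 FPKM in control libraries. Megakaryocyte and platelet markers (5 genes) summed to 1.22 to 10.1 FPKM in leukemic and 4.28 to 11.6 FPKM in control libraries. Endothelial markers (6 genes) stayed at or below 1.81 FPKM in sum, and the 3 eosinophil and mast cell markers in the table at or below 1.35 FPKM, in all 8 libraries. Fibroblast markers (8 genes, 84.4% of it Dcn, which osteoblasts also make) summed to 9050 to 15092 FPKM in leukemic and 5701 to 13824 FPKM in control libraries.

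The log2 ratio of leukemic over control in the authors' deposited table was 1.59 for Ccl2, 1.30 for Ccl7, 0.75 for Ccl11, 0.35 for Ccl9 and -0.08 for Ccl25. For the 2 genes too low to be tested the authors' deposited table gave 0.45 (Ccl5) and 2.84 (Ccl8), and how these ratios were formed is not stated.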

How the data were processed

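RNA from sorted OBCs was made into SMART-Seq v4 libraries, per the labels' protocols, a low-input kit that copies polyadenylated RNA and does not mark strand. Per the submitters' processing notes, the tools were RSEM 1.2.8, Bowtie2 2.2.5, HISAT2 2.0.4 and DESeq2, on GRCm38.p6, with no roles or settings given. The authors deposited FPKM values per gene and library, their group means and a log2 ratio, per the file headers. No counts were given and low values showed no steps of single reads (at most 3.73% of genes shared a ratio between libraries, with bins 0.03 wide in log2), which leaves depth unknown. The summed FPKM per library ran from 456191 to 632055.

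Values were analysed as log2(FPKM + 1) for the 11214 of 17068 genes that reached 1 FPKM in 4 or more libraries. The test was limma 3.58.1 under R 4.3.3, two-sided, with a variance trend, no covariates and Benjamini-Hochberg adjustment over all genes tested. A fold change is leukemic minus control. The 7 chemokines, the gene lists and the tests were chosen with earlier results of these data known. All 7 chemokines were named. For each one tested, the 3 likest genes by Pearson r were named, without predicted genes and without the other chemokines of the 7. From the lists, CC chemokines and receptors that were tested and genes without group overlap were named. Other examples (Lyz2, Mmp9, Nfkb1, Nfkbia and Jun among them) and the ratios to stromal markers were chosen after their values were seen. Transcript lengths and sequences came from GENCODE M21 (a length for 99.1% of genes tested) and positions from RefSeq genes on that build. The limma step was run before use on simulated data with independent noise for each gene. Those data held no effects shared by the genes of a library, so they do not check the p-values given here. Alternatives were 2 pseudocounts, 2 filters, 2 scalings, array weights, the replicate block, removal of the length trend (lowess, span 0.3) with and without that block, leaving out libraries and, after the data were seen, the stromal covariate. Same-numbered libraries of the groups were not treated as pairs.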

Additional observations from a re-analysis of the deposited data

Results flagged for a closer look

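Ccl8 stood at 0.65 FPKM in leukemic library 2 and was listed at 0 in the other 3 leukemic libraries. By Dixon's ratio of gap to range this value lay apart from its group, but with the other 3 values tied at 0 any value above 0 gives that result, so the ratio carries no information on how unusual it is. The other 14 groups of 4 values examined (both groups of the other 6 chemokines and of the ratio of Ccl2 to Ccl7) held no value past the 95% critical value, which chance passes in about 1 in 20 groups. Leukemic library 2 was also the highest of its group for the other 6 chemokines.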

How the results depend on the processing

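The fold changes of Ccl2 and Ccl7 kept their direction, and their adjusted p stayed over 0.05, under all 20 alternatives. Ccl2 ran from 1.26 (without leukemic library 2) to 1.97 (without leukemic library 4) over the libraries left out, and Ccl7 from 0.88 to 1.68. The small differences turned sign in places. Ccl9 was -0.020 with array weights and -0.078 without leukemic libraries 1 and 2, and ran from -0.013 to 0.46 over single libraries left out. Ccl11 was -0.26 without leukemic libraries 1 and 2 and ran from 0.05 to 0.78 over single libraries left out. Ccl25 was 0.032 with array weights and -0.48 without leukemic libraries 1 and 2, and ran from -0.30 to 0.26 over single libraries left out. The cause was not tested.

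Genes passing at an adjusted p under 0.05, 0 in the fit reported (742 at an unadjusted p under 0.05), numbered 1 without a filter, 2 rescaled to TPM, 3 with quantile normalization, 6 with array weights, 1 with the length trend removed and the replicate block, 6 with the stromal covariate, and 0 to 2 over single libraries left out. At an unadjusted p under 0.05, higher genes (279) numbered 160 with a filter of 5 FPKM, which tests fewer genes, 171 rescaled to TPM, 680 with array weights, 633 with the replicate block, 421 with the length trend removed, 604 with both, 419 with the stromal covariate, and 172 to 1237 over single libraries left out, the highest without leukemic library 4. Lower genes (463) numbered 267 with a filter of 5 FPKM, 725 rescaled to TPM, 864 with array weights, and 314 to 560 over single libraries left out. Rescaling to TPM moved the median log2 fold change of all genes to -0.15.

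Whether the replicate numbers pair libraries of both groups is not given, and the few correlations below cannot decide it. Deviations of same-numbered libraries from their group means had correlations of 0.122, -0.0473, -0.0717 and 0.22 for numbers 1 to 4, and 2 of 4 leukemic libraries correlated best with their own number. With the replicate block the fold changes of Ccl2 (1.63, limma adjusted p = 0.513) and Ccl7 (1.31, limma adjusted p = 0.54) did not pass either. With 5 FPKM as the filter, Ccl9, Ccl11 and Ccl25 could not be tested. Without read counts, the precision of values near 0, such as those of Ccl5 and Ccl8, is unknown.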
